A study of Mus musculus with 6 samples.

Results

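The transcripts of 10 genes for calcium entry and potassium channels were followed in mouse CD4 T cells with floxed or deleted Prmt5 alleles. The genes were chosen by name, as channels and sensors known from T cells: Orai1, Orai2, Orai3, Stim1, Stim2, Trpm4, Trpm7, Trpv2, Kcnn4 and Kcna3. They are 10 of 54532 gene rows in the deposited table, and all 10 were among the 14944 rows that averaged 1 or more in these libraries. PRMT5 is an enzyme that dimethylates arginines of proteins, and the title of the study connects it with splicing and with the calcium to NFAT pathway of stimulated T cells. The question here is whether the channel transcripts differ in amount between the genotypes.

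There were 6 RNA sequencing libraries on a C57BL/6 background, 3 labelled iCD4-PRMT5fl/fl (called WT, replicates 1, 2 and 4) and 3 labelled iCD4-PRMT5 delta/delta (called KO, replicates 1, 4 and 5). All came from CD4 T cells of spleen and lymph nodes, sequenced in bulk, so that fewer cells of a type and less RNA per cell cannot be told apart. Every sample carries a treatment label of 48 h with antibodies to CD3 and CD28, while every title carries the word rest. Which cells the deletion reached is given by no label beyond the prefix iCD4. A code in the descriptions places WT 1, WT 2 and KO 1 in library series 22, and WT 4, KO 4 and KO 5 in series 24. Values are robust FPM (fragment counts of a gene, scaled for library size by the authors), and the libraries do not sum to the same total. Nothing in the labels ties same-numbered samples to one animal, so a p-value here reflects only the scatter of these samples, which may be in part technical.

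A T cell whose receptor is engaged releases calcium from the endoplasmic reticulum through inositol trisphosphate receptors. STIM proteins sense the emptied store and open ORAI channels in the plasma membrane, which carry the sustained calcium entry that calcineurin and NFAT read. Potassium leaving through KCa3.1 and Kv1.3 keeps the membrane negative and so maintains the driving force for calcium, whereas sodium entering through TRPM4 lowers it.

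The series as a whole sets the limits of these values. Prmt5, the deleted gene, measured 34.9, 41.0 and 43.9 FPM in WT 1, WT 2 and WT 4 and 24.4, 23.8 and 21.5 FPM in KO 1, KO 4 and KO 5. The genotypes did not overlap, at a log2 change of -0.78 (SE 0.14) that did not pass over all genes (limma adjusted p = 1). The sum of 13 T cell markers lay between 3779 FPM (WT 1) and 4918 FPM (KO 4), with Trbc2 and Lck the highest. Of other cell types, 15 myeloid markers summed to 268.1 FPM in WT 1 and 1516 FPM in KO 5, led by Lyz2 and Csf1r, and 10 CD8 T and NK cell markers to between 125.4 and 175.1 FPM, led by Klrk1 and Klrb1c. The 10 B cell markers, led by Cd22 and Cd79b, summed to between 17.8 and 39.9 FPM, and Cd8a was at 0.2 to 2.1. Of the resting T cell genes, Satb1 was at 670.3 to 870.5 FPM, while Il2 stayed between 0.7 and 1.1 FPM and the proliferation marker Mki67 between 56.4 and 120.1. WT 1 stood apart: 1428 olfactory and vomeronasal receptor genes, which T cells are not known to use, had 0.301 FPM per kb of exon in it and 0.0144 to 0.0847 in the others.

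The ORAI genes encode the pore of the store-operated channel. Orai1 (ENSMUSG00000049686.14, GRCm38 chromosome 5, 123015074 to 123030456, plus strand) encodes one of these pore subunits. Its level was 27.8, 35.2 and 35.2 FPM in WT 1, WT 2 and WT 4 and 39.3, 33.3 and 31.2 FPM in KO 1, KO 4 and KO 5. The lowest library was a WT one and the highest a KO one, while WT 2 and WT 4 lay above KO 4 and KO 5, so the groups overlapped. The WT mean was 32.7 ± 4.27 and the KO mean 34.6 ± 4.20 FPM (SD, n = 3). The log2 change (KO minus WT on the log2(FPM + 0.5) scale, library series as a term) was 0.10 (SE 0.16, limma adjusted p = 1).

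Orai2 (ENSMUSG00000039747.11, chromosome 5, 136147459 to 136170713, minus strand) encodes a paralogue that joins ORAI1 in mixed channels. It measured 110.2, 123.9 and 162.9 FPM in the WT libraries and 156.0, 171.0 and 135.9 FPM in the KO libraries, in the order given above. Both WT libraries of series 22 lay below all KO libraries, but WT 4 lay within the KO range. Means were 132.3 ± 27.3 for WT and 154.3 ± 17.6 FPM for KO (SD, n = 3), and the log2 change was 0.16 (SE 0.16). Orai3 (ENSMUSG00000043964.14, chromosome 7, 127769815 to 127775150, plus strand), the third paralogue, measured 10.3, 12.4 and 17.7 FPM in WT and 16.4, 18.3 and 15.4 FPM in KO. The same 2 WT libraries were low and WT 4 was high, at a log2 change of 0.22 (SE 0.18). Its interval, -0.19 to 0.63, was the widest of the 10 genes.

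The STIM genes encode the sensors of the store, and their values spread to a different extent. Stim1 (ENSMUSG00000030987.5, chromosome 7, 102267806 to 102437319, plus strand) measured 99.2, 109.8 and 129.8 FPM in WT 1, WT 2 and WT 4 and 119.6, 125.6 and 122.9 FPM in KO 1, KO 4 and KO 5. The 3 KO values lay close together inside the WT range, and the log2 change was 0.07 (SE 0.12). The WT mean of 112.9 ± 15.5 thus had a wider spread than the KO mean of 122.7 ± 3.005 FPM (SD, n = 3). Stim2 (ENSMUSG00000039156.19, chromosome 5, 53998499 to 54121057, plus strand) encodes the sensor that responds to smaller losses of stored calcium. It measured 51.7, 45.3 and 49.7 FPM in WT and 52.0, 44.8 and 50.2 FPM in KO, so that the groups covered nearly the same range (log2 change 0.02, SE 0.12). Within a library, the Stim1 to Stim2 ratio of FPM was 2.32 ± 0.358 in WT and 2.52 ± 0.259 in KO (SD, n = 3), and the Orai1 to Orai2 ratio 0.251 ± 0.0340 in WT and 0.225 ± 0.0288 in KO (SD, n = 3). Such ratios do not depend on how a library was scaled, but they compare FPM without regard to gene length. Neither differed beyond the spread of the libraries (two-sided exact permutation test, p = 0.50 and 0.40, both 0.50 after adjustment over 3 ratios, where 0.10 is the smallest p that 3 against 3 allow). This test did not take the library series into account. Within series 22 and series 24 the log2 ratio differed, KO minus WT, by 0.093 and 0.0041 for Stim1 to Stim2. For Orai1 to Orai2 these differences were -0.091 and -0.030.

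The TRP channel genes took separate courses. Trpm4 (ENSMUSG00000038260.10, chromosome 7, 45302632 to 45333780, minus strand), whose channel is opened by intracellular calcium and admits sodium, measured 8.8, 8.1 and 9.5 FPM in WT 1, WT 2 and WT 4 and 7.8, 8.2 and 8.6 FPM in KO 1, KO 4 and KO 5. The groups overlapped, and the log2 change of -0.14 (SE 0.14) was one of 2 negative ones among the 10 genes. A level equal to that at the receptor genes would give 3.26 FPM over the exons of Trpm4 in WT 1 and 0.156 to 0.917 FPM in the other libraries, which leaves 5.54, 7.18 and 9.34 FPM in WT and 7.43, 7.32 and 8.33 FPM in KO. With that background subtracted for all genes, an alternative chosen after the data had been seen, the log2 change of Trpm4 was -0.01.

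Trpm7 (ENSMUSG00000027365.14, chromosome 2, 126791565 to 126876230, minus strand), a channel for magnesium and other divalent ions joined to a protein kinase, had the smallest spread of the 10 genes in the deposited values. It measured 237.6, 241.0 and 269.7 FPM in WT and 249.6, 234.6 and 251.0 FPM in KO, with WT 4 highest and KO 4 lowest. The log2 change was -0.05 (SE 0.11, interval -0.30 to 0.21). Trpv2 (ENSMUSG00000018507.16, chromosome 11, 62574486 to 62600515, plus strand), a non-selective cation channel, measured 51.1, 61.3 and 80.8 FPM in WT and 73.8, 84.9 and 74.5 FPM in KO. WT 1 and WT 2 lay below every KO library and WT 4 lay between KO 5 and KO 4, and the log2 change was 0.19 (SE 0.15), with the smallest unadjusted p of the 10 genes, 0.238 (limma).

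The potassium channel genes were, like the ORAI genes, lowest in WT 1. Kcnn4 (ENSMUSG00000054342.8, chromosome 7, 24370263 to 24386690, plus strand), which encodes the calcium-activated channel KCa3.1, measured 145.7, 178.2 and 209.0 FPM in WT 1, WT 2 and WT 4 and 204.8, 210.8 and 187.0 FPM in KO 1, KO 4 and KO 5. The low values were those of WT 1 and WT 2. Means were 177.6 ± 31.7 for WT and 200.9 ± 12.4 FPM for KO (SD, n = 3), and the log2 change was 0.14 (SE 0.14). Kcna3 (ENSMUSG00000047959.4, chromosome 3, 107036169 to 107038070, plus strand), which encodes the voltage-gated channel Kv1.3, measured 33.0, 41.0 and 52.6 FPM in WT and 47.9, 44.4 and 42.1 FPM in KO. Here the WT libraries held both the lowest and the highest value (log2 change 0.05, SE 0.17). The Kcnn4 to Kcna3 ratio was 4.24 ± 0.238 in WT and 4.49 ± 0.240 in KO (SD, n = 3), without a difference beyond the spread (two-sided exact permutation test, p = 0.40, adjusted 0.50). The library series was not part of this test, and the log2 ratio differed by -0.031 within series 22 and 0.21 within series 24.

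**Figure D1:**
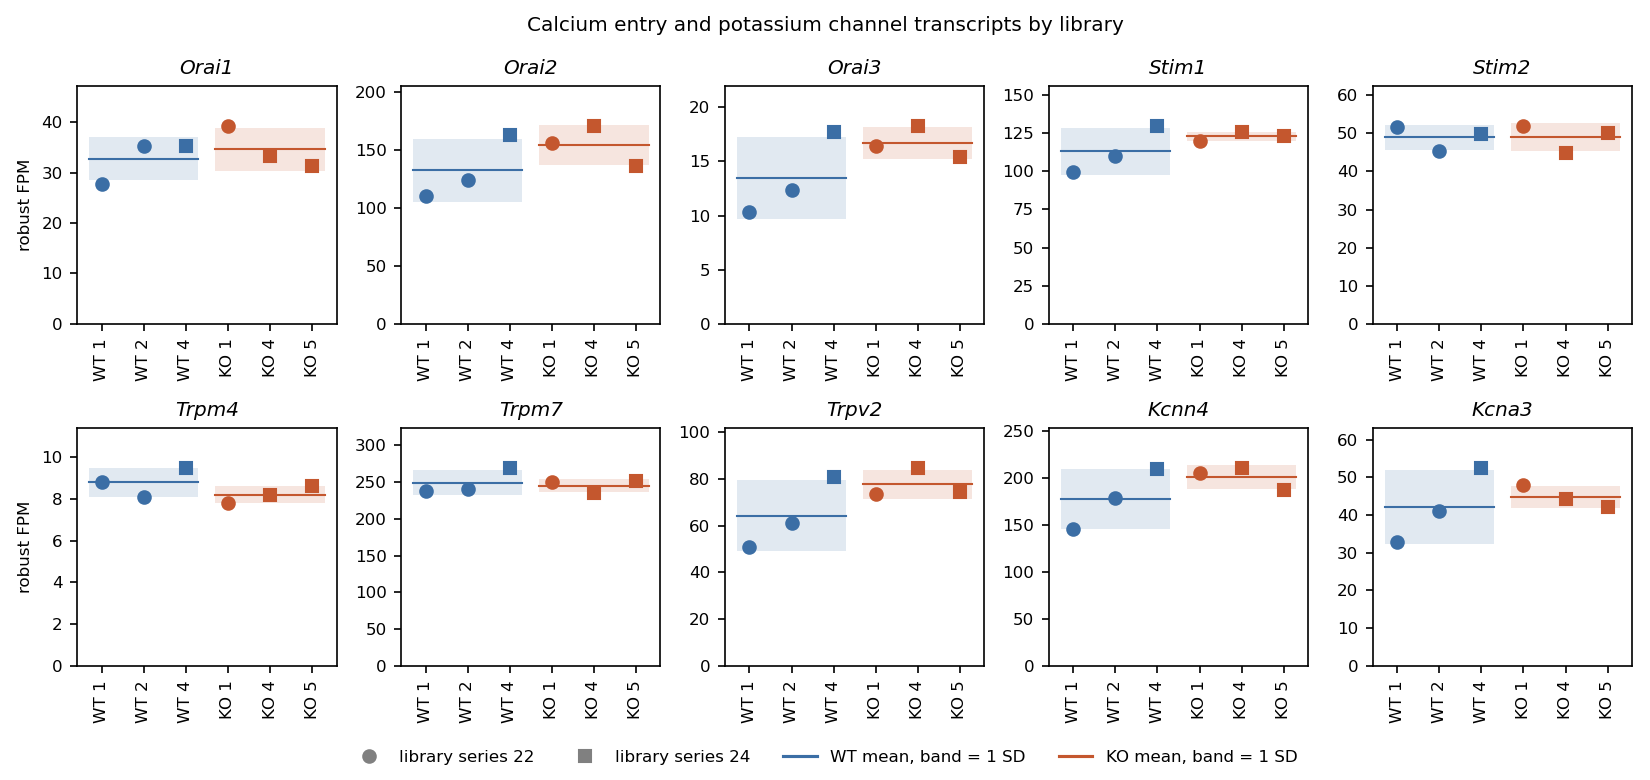
Robust FPM (vertical axis, from 0) of the 10 genes in each of the 6 libraries, with circles for series 22 and squares for series 24; lines and bands are the mean and 1 SD of each genotype (n = 3). The genotypes overlap in every panel, and WT 1 is the lowest library for Orai1, Orai2, Orai3, Stim1, Trpv2, Kcnn4 and Kcna3.

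None of the 10 genes passed the test of KO against WT (limma, 0 of 10 with adjusted p below 0.05, and 0 of 10 at an unadjusted p below 0.05), and the genotypes overlapped for all 10. Over all genes tested percent called was 0, and 2.88% of genes had genotypes that did not overlap. At an unadjusted p below 0.05 the share was 0.248%, far fewer genes than that threshold alone would give. Not passing here thus does not show an absence of change, as Prmt5, the deleted gene, did not pass either. The adjusted p was 1 for each of the 10. The log2 changes were positive for 8 genes and negative for 2, but positive for 1 of 10 when libraries were scaled to spike-in RNA (ERCC). Their median was 0.08, beside 0.01 over all genes tested, of which 54.4% were positive, and with spike-in scaling -0.14 beside -0.20. In the deposited values the 95% interval of the change lay inside a 2-fold difference for 10 of 10 genes. It lay inside a 1.5-fold difference for 9 of 10, all but Orai3. Over all genes these shares were 85.1% and 60.1%. These bounds do not carry over to spike-in scaling, where the scatter was larger: Trpm4 had a larger change (-0.35) at a larger unadjusted p (limma, 0.492 against 0.344 as deposited).

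**Figure D2:**
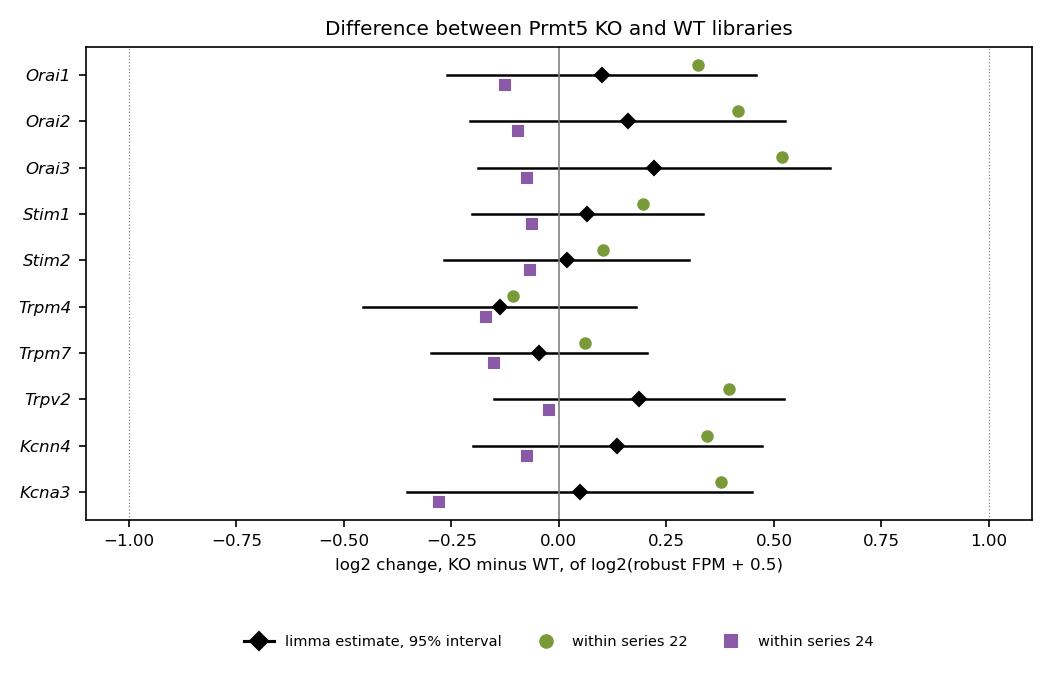
Log2 change of each gene, KO minus WT, as the limma estimate with its 95% interval (diamonds and lines), and the difference of means within series 22 (circles) and within series 24 (squares); dotted lines mark a 2-fold change. The estimates lie between -0.14 and 0.22, and circles and squares fall on opposite sides of 0 for every gene except Trpm4.

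As deposited, the difference between genotypes had opposite signs in the 2 library series. Within series 22, where KO 1 stands against WT 1 and WT 2, the difference was positive for 9 of 10 genes, from 0.06 for Trpm7 to 0.52 for Orai3, and -0.11 for Trpm4. Within series 24, where KO 4 and KO 5 stand against WT 4, it was negative for 10 of 10, from -0.02 for Trpv2 to -0.28 for Kcna3. A positive difference in series 22 with a negative one in series 24 was thus found for 9 of 10 genes, and for 54.3% of all genes tested. It was not particular to the channel genes: 12 of 13 T cell markers (92.3%) and 13 of 15 activation markers tested (86.7%) had it too. The count for the channel genes moved with the scaling: it was 9 with spike-in scaling, 7 with scaling to the total, 3 with median-of-ratios scaling and 2 with scaling to T cell markers. The share over all genes is given only as deposited, and no share stands beside these counts. With median-of-ratios scaling the differences were positive for 7 genes in series 22 and negative for 5 in series 24. A term for the difference between series was negative for all 10 genes, except that Stim2 and Trpm4 turned positive with median-of-ratios scaling and Trpm4 with scaling to the total. Its median was -0.42, beside -0.21 over all genes. Over genes that averaged 5 or more, as all 10 did, the median was -0.27 and 11.7% were positive. With median-of-ratios scaling the medians of the 10 genes and of all genes were -0.22 and -0.02, and with spike-in scaling -1.08 and -0.83. No gene of the 10 passed (limma, 0 of 10, adjusted p from 0.678 to 0.937, percent called 0 over all genes), and Kcna3 alone had an unadjusted p below 0.05 (-0.66, unadjusted p = 0.0408, limma adjusted p = 0.678). Over all genes tested, 369 of 14944 had an unadjusted p below 0.05 for this term (limma). Without KO 1, which leaves series 22 with no KO library, the change was negative for 10 of 10 genes, and without WT 4 it was positive for 9 of 10. Without WT 1, the library that stood apart, 6 of 10 were positive, and Orai1 (-0.0043) and Kcna3 (-0.06) turned negative.

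The series themselves were then compared, with genotype as a term. Trpv2 was 62.1 ± 11.4 FPM in series 22 and 80.1 ± 5.24 FPM in series 24 (SD, n = 3), and Stim1 109.5 ± 10.2 and 126.1 ± 3.48 FPM (SD, n = 3). In these 2 genes, and in none of the other 8, the libraries of series 24 all lay above those of series 22 in the deposited values and with median-of-ratios scaling. In the deposited values such a pattern was found in 14.3% of all genes tested, and a lack of overlap in either direction in 20.5%. With scaling to the total Orai3, Stim1, Trpm4 and Trpv2 separated in this way, with scaling to T cell markers Orai2, Orai3, Trpv2 and Kcnn4, and with spike-in scaling 0 of 10. The shares over all genes are given for the deposited values only, so these counts have no share of their own scaling beside them. The log2 differences, series 24 minus series 22, were 0.32 (SE 0.15) for Trpv2 and 0.18 (SE 0.12) for Stim1, and 0 of 10 genes passed (limma adjusted p of 0.595 and 0.704 for these 2 genes, percent called 0.141 over all genes in either direction and 0.00669 for higher in series 24, 0 of 10 at an unadjusted p below 0.05). Over all genes tested, 1317 of 14944 had an unadjusted p below 0.05 between the series (limma). Among genes whose series overlapped, Orai3 had a difference of 0.33 (SE 0.18) and Orai2 of 0.22 (SE 0.16), while Orai1 (-0.06) and Stim2 (-0.05) were the 2 negative genes, both of which turned positive with spike-in scaling. Single libraries moved these values: the difference of Trpv2 was 0.11 without WT 4 and 0.53 without KO 1, that of Stim1 0.055 and 0.31, and that of Orai3 0.033 and 0.62. Without KO 1, Orai2, Orai3, Trpv2 and Kcna3 had an unadjusted p below 0.05 (limma adjusted p = 0.395 for each). So did 1834 of all 15250 genes tested in that fit. The immediate early gene Nr4a1, which T cell receptor signals induce and the 1 activation marker called, moved with the series: it fell by 1.63 on the log2 scale in series 24 (limma adjusted p = 0.0251). It was not called without WT 2 (0.0579), WT 4 (0.139), KO 1 (0.395) or KO 5 (0.0536), each a limma adjusted p, nor with spike-in scaling (limma adjusted p = 1) or without a mean-variance trend (0.186). Its part in the channel values was not tested.

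Across libraries, irrespective of genotype, the 10 genes varied to different extents. WT 1 was the lowest library for 7 of 10 genes, and for 46.0% of all genes tested. With median-of-ratios scaling the count was 7 and with scaling to the total 8, but with spike-in scaling it was 0. The share over all genes is given for the deposited values only. In the deposited values the exceptions were Stim2, Trpm4 and Trpm7, which also had the smallest coefficients of variation over the 6 libraries, 6.43%, 7.14% and 5.17%. The other 7 genes had coefficients from 9.63% (Stim1) to 20.8% (Orai3), and the median over all genes tested was 14.7%. This order moved with the scaling. With median-of-ratios scaling Trpm7 had 3.12%, Stim1 5.82%, Trpm4 7.90% and Stim2 8.44%, and with spike-in scaling the coefficients lay between 24.9% (Orai1) and 31.5% (Trpm4). T cell and myeloid markers were both low in WT 1: 11 of 13 T cell markers and 11 of 15 myeloid markers had their minimum there, and the sum of each deviated by -0.24 and -1.25 on the log2 scale from its mean over the libraries. The log2 difference between the genotypes was positive for 12 of 13 T cell and 13 of 15 myeloid markers. The part of either in the channel values was not tested.

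When each gene was set against the summed T cell markers, a scaling chosen after the data had been seen, the coefficient of variation became smaller for the 7 genes that were lowest in WT 1. Since the marker sum was also lowest in WT 1, this in part restates that pattern and is no separate evidence. That of Kcnn4 went from 13.2% to 5.58%, that of Orai2 from 16.6% to 7.96% and that of Orai1 from 11.7% to 6.72%. It became larger for Stim2 (14.8%), Trpm4 (14.1%) and Trpm7 (10.3%). Of all genes tested, 37.8% became less variable. On this scale the genotype difference was positive for 5 of 10 genes, from -0.21 for Trpm4 to 0.15 for Orai3, and their median was 0.0085 beside -0.06 over all genes.

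**Figure D3:**
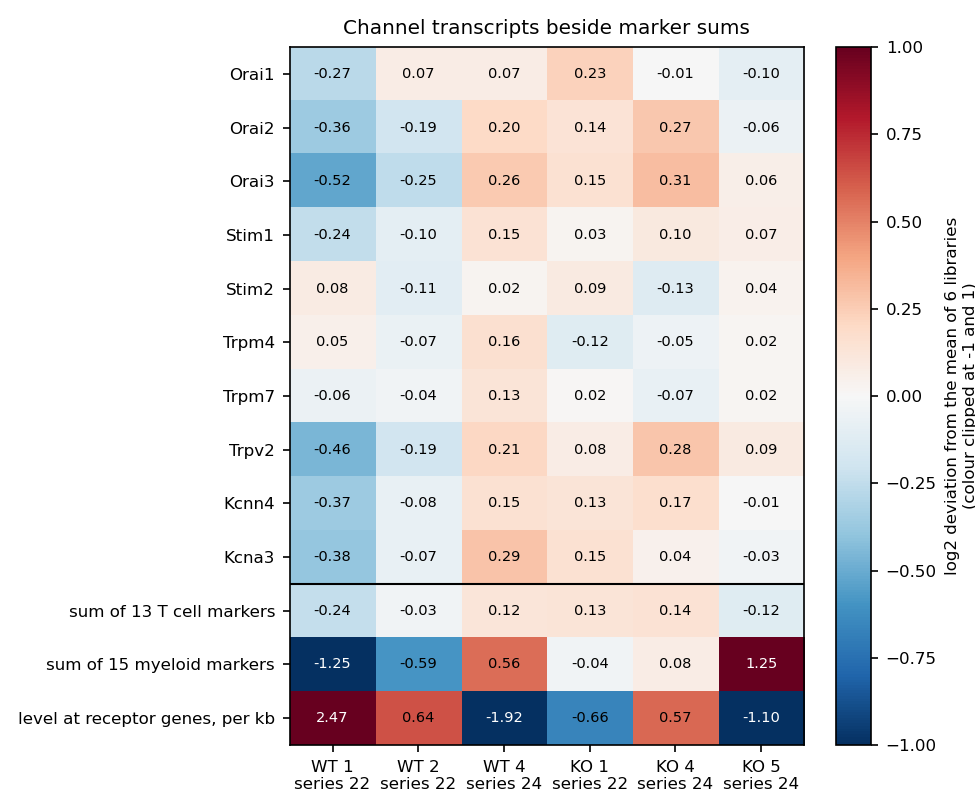
Log2 deviation of each gene from its mean over the 6 libraries (rows above the line), beside that of 2 marker sums and of the level at olfactory and vomeronasal receptor genes, with the value printed in each cell. The WT 1 column is at -0.24 or lower for 7 genes at -0.24 for the T cell markers and at -1.25 for the myeloid markers, while Stim2, Trpm4 and Trpm7 deviate by 0.163 at most from their means in all libraries.

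To show the regulatory DNA of genes with large and small spread in the deposited values, the 250 bases before the annotated start are given for Orai3, Kcnn4, Trpv2 and Kcna3 and for Trpm7. Of the 10 genes, 9 were matched in the RefSeq promoter table (GRCm38.p6), all but Trpm4, and windows that hold an annotated exon are not printed. Capitals mark GGAAA, the core of NFAT sites, and GGGCGG, the GC box bound by SP1 factors, each on either strand (TTTCC and CCGCCC).
Orai3, chr7:127769565-127769814, plus strand: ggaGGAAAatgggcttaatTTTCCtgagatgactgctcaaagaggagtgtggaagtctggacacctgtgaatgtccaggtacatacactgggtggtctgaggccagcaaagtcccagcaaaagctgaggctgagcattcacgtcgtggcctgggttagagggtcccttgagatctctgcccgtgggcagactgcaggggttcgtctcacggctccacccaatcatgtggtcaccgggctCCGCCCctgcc
Kcnn4, chr7:24370013-24370262, plus strand: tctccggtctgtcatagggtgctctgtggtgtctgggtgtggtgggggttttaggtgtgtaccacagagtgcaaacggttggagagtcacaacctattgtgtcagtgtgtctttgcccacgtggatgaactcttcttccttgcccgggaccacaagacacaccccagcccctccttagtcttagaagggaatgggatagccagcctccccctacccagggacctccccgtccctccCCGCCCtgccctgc
Trpv2, chr11:62574236-62574485, plus strand: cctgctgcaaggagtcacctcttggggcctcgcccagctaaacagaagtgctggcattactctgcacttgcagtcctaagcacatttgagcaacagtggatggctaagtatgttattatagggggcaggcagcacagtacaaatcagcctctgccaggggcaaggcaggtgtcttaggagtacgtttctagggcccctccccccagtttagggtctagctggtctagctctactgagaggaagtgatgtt
Kcna3, chr3:107035912-107036161, plus strand: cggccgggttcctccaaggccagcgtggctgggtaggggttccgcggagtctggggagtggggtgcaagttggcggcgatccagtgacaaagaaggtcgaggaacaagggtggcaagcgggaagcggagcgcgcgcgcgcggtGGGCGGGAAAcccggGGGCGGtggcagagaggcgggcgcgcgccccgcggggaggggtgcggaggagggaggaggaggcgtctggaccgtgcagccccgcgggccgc
Trpm7, chr2:126876262-126876511, minus strand: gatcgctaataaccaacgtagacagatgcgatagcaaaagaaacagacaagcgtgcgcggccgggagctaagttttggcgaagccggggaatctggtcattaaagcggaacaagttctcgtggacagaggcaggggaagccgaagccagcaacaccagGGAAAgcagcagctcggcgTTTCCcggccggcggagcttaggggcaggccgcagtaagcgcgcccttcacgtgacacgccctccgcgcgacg
Over 32851 windows of this length in the table, 55.6% held GGAAA and 32.7% held GGGCGG on either strand. The Orai3 window held 2 matches to GGAAA and 1 to GGGCGG, the Kcnn4 window 0 and 1, the Trpv2 window (at the first of 3 listed starts) 0 and 0, the Kcna3 window 1 and 2, with an overlap of the GGAAA match and a GGGCGG match, and the Trpm7 window 2 and 0. CG dinucleotides numbered 7, 6, 2 and 31 in the windows of Orai3, Kcnn4, Trpv2 and Kcna3 and 26 in that of Trpm7, where the median window held 6. Among windows that are not printed, that of Stim1 held 31, those of Orai1 and Stim2 30 and that of Orai2 17. A match is a description of letters and not a measured site.

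Levels of different genes are compared per kb of exon, since longer transcripts collect more fragments. Kcnn4 stood highest, at 37.0 ± 4.88 FPM per kb over the union of its annotated exons (SD, n = 6 libraries of both genotypes). Orai2 (23.6 ± 3.92), Kcna3 (22.9 ± 3.50) and Trpm7 (21.9 ± 1.13) came next, then Trpv2 (15.9 ± 2.82), Orai1 (14.7 ± 1.71), Stim1 (11.4 ± 1.09), Stim2 (9.54 ± 0.613) and Orai3 (7.05 ± 1.46), each in FPM per kb. Trpm4 was lowest, at 0.785 ± 0.0560 FPM per kb, 47.1-fold below Kcnn4. Of the ORAI genes, Orai2 thus had the highest level and Orai3 the lowest.

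Of 9 pairs of neighbours in this order, 5 kept their order in 6 of 6 libraries: Kcnn4 over Orai2, Trpm7 over Trpv2, Orai1 over Stim1, Stim2 over Orai3 and Orai3 over Trpm4. Each of these reached the smallest p that 6 libraries allow (two-sided exact sign-flip permutation test, p = 0.0313), which adjusted over the 9 pairs was 0.0563. The order was taken from these same 6 libraries, so the direction of each mean difference was set before the test and is no separate evidence. For pairs at the smallest p, the adjusted value depends only on how many of the 9 pairs reach it. The log2 difference per kb was 0.65 for Kcnn4 over Orai2, 0.48 for Trpm7 over Trpv2, 0.38 for Orai1 over Stim1, 0.43 for Stim2 over Orai3 and 3.11 for Orai3 over Trpm4. Orai2 over Kcna3, Kcna3 over Trpm7, Trpv2 over Orai1 and Stim1 over Stim2 did not differ beyond the spread of the libraries (permutation p from 0.0625 to 0.719).

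The length used decided part of this order. Annotated exons of Stim1 cover 10.4 kb and those of Trpm4 10.8 kb in 9 transcripts each, while their longest transcripts have 4.36 and 4.32 kb. Per kb of longest transcript Stim1 stood at 27.0 FPM, above Kcna3, Trpv2 and Orai1, and the log2 difference of Orai1 over Stim1 turned to -0.58 and that of Kcna3 over Trpm7 to -0.60. Kcnn4 stayed highest (52.0 FPM per kb) and Trpm4 lowest (1.97 FPM per kb), 26.4-fold apart. On both lengths Orai2 was above Orai1, and Orai1 above Orai3.

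**Figure D4:**
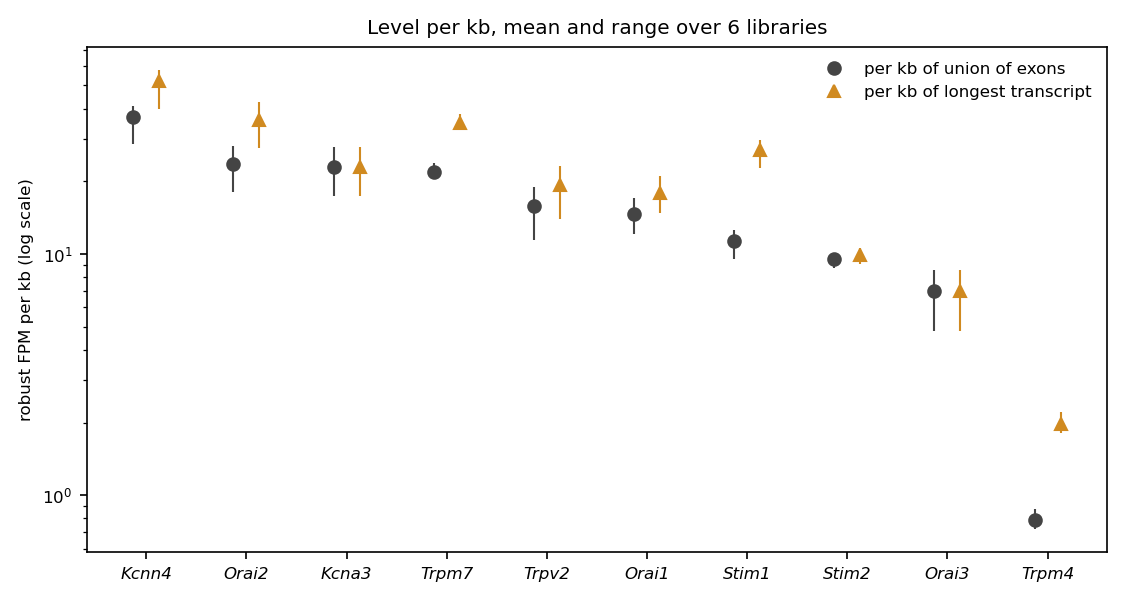
Robust FPM per kb (log axis) of the 10 genes, ordered by level per kb of the union of exons; points are means and lines the range over 6 libraries, for both choices of length. Kcnn4 is highest and Trpm4 lowest on either length, while Stim1 moves from 11.4 to 27.0 and Trpm4 from 0.785 to 1.97.

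By a rule set for likeness, the gene whose log2 values followed each channel gene most closely was sought among the 10319 genes that averaged 5 or more, over 6 libraries. These were Cct6a for Orai1 (Pearson r = 0.998), Commd8 for Orai2 (0.996), Rmdn3 for Orai3 (0.998), Cyth4 for Stim1 (0.999) and R3hcc1 for Stim2 (0.987). Rragd was nearest to Trpm4 (0.988), Mbtps2 to Trpm7 (0.991), Tmem42 to Trpv2 (0.999), Ewsr1 to Kcnn4 (0.999) and Uba3 to Kcna3 (0.9996). Each is the highest of 10319 values over 6 points, and all genes of a library share its scaling, so it only describes a shape over libraries.

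Other genes of the pathway, from lists written for this purpose, had no member that passed between the genotypes (limma, 0 called in each direction, and 0 of 93 genes tested at an unadjusted p below 0.05). Store release, pumps and STIM-ORAI regulators had 22 tested genes of 27, with 14 positive and 8 negative differences and a median of 0.03. Their members of smallest p were Mcoln2, a lysosomal cation channel (log2 change 0.38), and Ryr3, a ryanodine receptor (-0.43). Ryr3 was at 17.3 FPM in WT 1, where a level equal to that at the receptor genes would give 5.71, and at 4.6 to 8.0 FPM in the other libraries. Mitochondrial calcium uptake had 12 tested of 12, with 9 positive and a median of 0.03. There Mcub, which encodes a subunit that limits uptake, was at 0.32 and Mcu, the pore of the uniporter, at -0.12. Other potassium channels and subunits had 19 tested of 34, with 8 positive and a median of -0.03, led by Pik3c2b (-0.20), a lipid kinase that promotes KCa3.1 activity, and Kcnk6 (0.23). Other calcium-permeable, chloride and magnesium channels had 34 tested of 37, with 14 positive and a median of -0.05, led by Cnnm3 (0.17) and Lrrc8a (0.22), a subunit of the volume-regulated anion channel.

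Most other TRP channel genes were low. Of 19, 6 passed the filter on low values, and 5 of these 6 had their highest value in WT 1, the library with the highest level at receptor genes, against 21.2% of all genes tested. The filter took the mean with WT 1 included, so this count is in part set by it and is no separate evidence. Trpm8, at a mean of 1.48 FPM, had 4.4 in WT 1 and 0.4 to 1.6 in the others. Trpv3, at a mean of 1.15, had 3.6 in WT 1 and 0.2 to 1.1 in the others. Trpm6, a relative of Trpm7, measured 7.20 ± 1.37 FPM in WT and 5.23 ± 0.651 FPM in KO (SD, n = 3). Its log2 change was -0.30, and that of Trpm1 -0.24. The exception was Trpm2, chosen after its values were seen, a calcium-permeable channel of phagocytes and other cells, at 7.3, 13.2 and 25.4 FPM in WT 1, WT 2 and WT 4 and 15.2, 15.7 and 34.8 FPM in KO 1, KO 4 and KO 5.

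Several pathway genes, chosen after their values were seen, followed the myeloid gene Csf1r from library to library. Of the 15 pairs of libraries, Trpm2 ordered 14 as Csf1r did (50.3 FPM in WT 1 to 227.9 FPM in KO 5). At least 14 pairs had the order of Csf1r in 12 of the 93 tested pathway genes (12.9%, against 5.69% of all genes tested). Beside Trpm2 these were Plcg2, Slc8a1, Kcna2, Kcnk13, Kcnk6, Atp2a2, Itpr1, Slc8b1, Kcnh2, Lrrc8b and Magt1. Plcg2, the phospholipase of B cells and myeloid cells, ranged 4.25-fold and Kcnk13, a potassium leak channel, 5.71-fold. Others ranged little, Atp2a2 1.24-fold, Itpr1 1.25-fold and Magt1 1.34-fold. The 10 channel genes shared between 8 and 12 of the 15 pairs with Csf1r, with Stim1, Trpm7 and Kcna3 at 12 and Trpv2 at 11. With the T cell gene Lck they shared between 5 and 13 pairs: Orai2, Orai3 and Kcnn4 13, Trpv2 12, Orai1, Stim1 and Kcna3 11, Trpm7 7, and Stim2 and Trpm4 5. How much of their RNA came from myeloid cells was not tested.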

How the data were processed

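Total RNA of 6 samples was sequenced after removal of ribosomal RNA, with strand-specific TruSeq libraries per the labels' protocols. STAR, featureCounts, DESeq2, DESeq and the build GRCm38.p3 appear in the submitters' processing notes, with no roles. The use of strand in counting is not given in those notes. The authors' deposited values are robust FPM, per the file header and name, and were handled as RPM, not counts. Rounding to 1 decimal hides single reads, so depth is unknown and no counting interval is given. Another 6 columns matched no sample and were not used.

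Rows were matched to symbols by gene identifier, 54409 of 54532, and 92 ERCC spike-in rows were left out of the tests. Genes with a mean of at least 1 were fitted as log2(value + 0.5), a scale that understates changes of low genes, with limma 3.58.1 in R 4.3.3 (terms for series and genotype, mean-variance trend, two-sided, Benjamini-Hochberg over 14944 genes, called below an adjusted p of 0.05). The difference between series was an interaction term. The script was tested on simulated data. Coordinates, exon lengths and the 1428 receptor genes are from GENCODE M21 (GRCm38). For all 10 genes the identifier and its version in the table were those of this annotation, and shared exon sequence with another gene was 7 bases at most (Orai1, opposite strand).

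The members and lists were chosen with earlier results of these data known. Of 233 list symbols 232 were found. Named were the 10 genes, Prmt5, the 2 members of smallest p of each pathway list, the 2 highest members of marker lists and fixed defining markers; 2 of these markers are not reported here. Lists not described above were erythroid, platelet and mast cell markers (sums of 15.3 to 32.6 FPM, Itga2b and Cpa3 highest), stromal and endothelial markers (261.8 to 307.4 FPM, nearly all Pecam1, which T cells also express, then Col1a2) and activation markers (649.8 to 1066 FPM, Cd69 and Mki67 highest). Alternatives changed the pseudocount, filter, scaling, series term, variance model, threshold, length and libraries.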

Additional observations from a re-analysis of the deposited data

How the results depend on the processing

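None of the 10 genes was called under any alternative in any of the 3 comparisons. Of 200 alternative values of KO against WT 176 kept their direction and 24 turned, of 180 for the series 11 turned, and of 70 for the difference between series 3 turned. Changes of the filter, the variance model or the threshold cannot alter a log2 estimate. They keep its direction by construction and are counted in these totals, which therefore overstate how stable the directions were. Leaving out 1 library gave log2 changes of KO against WT from -0.13 to 0.32 for Orai1, -0.10 to 0.42 for Orai2, -0.074 to 0.52 for Orai3, -0.063 to 0.20 for Stim1, -0.067 to 0.10 for Stim2, -0.17 to -0.11 for Trpm4, -0.15 to 0.061 for Trpm7, -0.023 to 0.40 for Trpv2, -0.074 to 0.345 for Kcnn4 and -0.28 to 0.38 for Kcna3. The lowest values were those without KO 1 and the highest those without WT 4, which are the within-series values by construction. For series 24 against 22 the ranges were -0.28 to 0.17 for Orai1, -0.033 to 0.48 for Orai2, -0.13 to 0.038 for Stim2, 0.033 to 0.62 for Orai3, 0.055 to 0.31 for Stim1, 0.11 to 0.53 for Trpv2, -0.041 to 0.17 for Trpm7, -0.045 to 0.37 for Kcnn4 and -0.15 to 0.51 for Kcna3.

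With ERCC scaling, where the median of all genes moved to -0.20, 9 of 10 genes were negative in KO: Orai1 at -0.12, Orai2 -0.059, Stim1 -0.15, Stim2 -0.20, Trpv2 -0.032, Kcnn4 -0.084 and Kcna3 -0.17 turned, and Orai3 stood at 0.0070. Scaling to T cell markers turned Stim1 (-0.0085), Stim2 (-0.057) and Kcna3 (-0.026). For the series, ERCC scaling turned Orai1 (0.0020) and Stim2 (0.012), and Trpm7 turned with median-of-ratios scaling (-0.0042) and T cell markers (-0.0049). For the difference between series, Stim2 turned with median-of-ratios scaling (0.023), and Trpm4 with this (0.12) and with total-sum scaling (0.0017). The causes were not tested.

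Numbers 1 and 4 are shared by a WT and a KO library. Deviations of same-numbered libraries correlated at -0.160 and -0.409. Those of WT and KO libraries with different numbers correlated at values from -0.358 to 0.485. With so few same-numbered pairs and so wide a range, these values cannot decide whether libraries of the same number are related. With the replicate block in place of the series term, 1 gene was called higher and 4 lower over all genes against 0 and 0, none of the 10 among them, and Stim2 turned to -0.070; the block left 1 degree of freedom before pooling and cannot be combined with the comparison of series, whose own term could not be left out either.

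Counts for the series moved from 1 gene higher and 20 lower. Genes called higher were 2 with a pseudocount of 0.1, 6 with a mean of at least 5, 5 with median-of-ratios scaling, 3 with ERCC scaling, 0 without a mean-variance trend, 3 with robust empirical Bayes, 5 at an adjusted p below 0.10 and 5 with background subtracted. Genes called lower were 48 with a mean of at least 5, 61 with median-of-ratios scaling, 10 with ERCC scaling, 0 without the trend, 34 with robust empirical Bayes, 37 at 0.10, 45 with background subtracted and 37 scaled to T cell markers. Leaving out 1 library gave 0 to 38 higher and 0 to 92 lower. The difference between series had 4 genes higher and 4 lower with ERCC scaling.

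Per kb of longest transcript, Kcna3 over Trpm7 (-0.60) and Orai1 over Stim1 (-0.58) turned, and passed in the reversed order (exact permutation, adjusted p = 0.0352). At the same adjusted p, Kcnn4 over Orai2 (0.54), Orai2 over Kcna3 (0.64) and Trpm7 over Trpv2 (0.86) passed in their order. So did Stim1 over Stim2 (1.43), Stim2 over Orai3 (0.49) and Orai3 over Trpm4 (1.78). The adjusted p is lower than with the union of exons because more pairs reached the smallest p, not because any p was smaller. The test covers the spread of the libraries and not the choice of length. The difference in log2 ratio of Stim1 to Stim2 was 0.13, and -0.0040 to 0.22 with 1 library left out.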
